A study of Mus musculus with 9 samples.

Results

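A set of 9 genes that take adenosine and other purines apart or recycle them were followed in RNA from mouse small intestine during acute graft-versus-host disease (GVHD), an attack on the host by donor immune cells. The genes were Pnp, Pnp2, Ada, Xdh, Nt5e, Entpd1, Adora2b, Hprt and Aprt, taken by name from 48708 genes in the deposited table. They were chosen by their counts in all 9 libraries, whose values were already known, so their levels and fold changes are a description and carry no p-value. All 9 passed the filter on low counts.

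The series holds 9 libraries from C57BL/6 mice at postnatal week 8, 3 in each of 3 groups. The wild-type group is called WT. The group called RIPK3-KO has the genotype RIPK3-/-, without the kinase RIPK3 in the whole body. The group called Vil has the genotype Villin-cre. RIPK3fl/fl, in which Cre under the Villin promoter removes Ripk3 from intestinal epithelium and leaves it in other cells. The labels do not give the genotype of the transplanted cells, nor say that the libraries of a group came from separate mice, so the spread between libraries may be technical.

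Purines leave damaged cells mainly as ATP and are taken apart outside the cell. Entpd1 (CD39) cuts ATP to AMP, Nt5e (CD73) cuts AMP to adenosine, and adenosine signals through receptors such as Adora2b or is turned into inosine by Ada. Inside cells Pnp splits inosine and guanosine into a sugar phosphate and a free base, Hprt and Aprt put free bases back into nucleotides, and Xdh oxidises what is left to uric acid. In mouse small intestine Ada and Nt5e are known as genes of absorptive cells towards the villus tip.

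Pnp and Pnp2 are neighbouring copies on chromosome 14, and their sequences are shown first because the largest difference among the 9 genes lies between them. In mm10 the deposited table places Pnp (ENSMUSG00000021871) at chr14:50944302-50965237 and Pnp2 (ENSMUSG00000068417) at chr14:50955992-50964749, both on the + strand, so the whole of Pnp2 lies inside the region given for Pnp. In GENCODE M21 the identifier counted as Pnp belongs to Gm49342, and 1 exon of Gm49342 overlaps exons of Pnp2. The Pnp sequence used here is that of the M21 gene named Pnp, which has another identifier, so it may differ from the gene counted. Exon 2 of Pnp and of Pnp2 is coding and 170 bases long. It is printed 5′ to 3′ from GENCODE M21 transcripts (GRCm38, + strand), with the base that differs in capitals.
Pnp exon 2, chr14:50947852-50948021: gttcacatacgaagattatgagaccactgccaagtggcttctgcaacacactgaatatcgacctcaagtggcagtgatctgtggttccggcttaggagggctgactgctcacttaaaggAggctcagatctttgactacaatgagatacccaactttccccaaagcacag
Pnp2 exon 2, chr14:50959515-50959684: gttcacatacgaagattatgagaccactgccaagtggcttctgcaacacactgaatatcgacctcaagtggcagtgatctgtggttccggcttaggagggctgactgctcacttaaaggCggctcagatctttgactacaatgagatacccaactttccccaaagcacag
The exons were identical at 169 of 170 bases. Over the aligned coding sequence, 850 of 867 bases were identical (98.04%). Of the 1323 windows of 50 bases in the Pnp2 transcript, 438 (33.1%) also occurred in the Pnp transcript. How the authors treated reads that match both copies is not given in the sources used here, so the counts of either gene alone are uncertain.

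Pnp2 was nearly absent from RIPK3-KO and higher in Vil. Values are CPM, counts scaled to library size. In WT replicates 1 to 3, Pnp2 was at 244, 241 and 248 CPM. In RIPK3-KO it was at 1.53, 0.739 and 0.708 CPM, from 57, 28 and 30 counts, and in Vil at 422, 417 and 398 CPM. The 3 groups did not overlap. Against WT the fitted log2 fold change was -7.96 (SE 0.11) in RIPK3-KO and 0.75 (SE 0.07) in Vil.

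Pnp, the other copy, was highest in the group where Pnp2 was nearly absent. It was at 352, 353 and 347 CPM in WT, at 609, 570 and 560 CPM in RIPK3-KO, and at 438, 437 and 426 CPM in Vil. Again no group overlapped another. The fitted log2 fold change against WT was 0.73 (SE 0.04) in RIPK3-KO and 0.31 (SE 0.04) in Vil.

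Summing the copies removed the difference between RIPK3-KO and WT. The sum was 595 ± 1.13 CPM in WT and 581 ± 26.7 CPM in RIPK3-KO (SD, n = 3), and these groups overlapped (log2 fold change -0.04, SE 0.04). In Vil the sum was 846 ± 19.97 CPM, above every WT library (log2 fold change 0.51, SE 0.04). Pnp2 took 40.6 to 41.7% of the summed counts in WT, 48.3 to 49.1% in Vil and 0.126 to 0.251% in RIPK3-KO. The CPM lost from Pnp2 in RIPK3-KO, 245 ± 3.71 in WT against 0.994 ± 0.468, thus stood beside a gain in Pnp from 350 ± 3.09 to 580 ± 26.2.

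**Figure D1:**
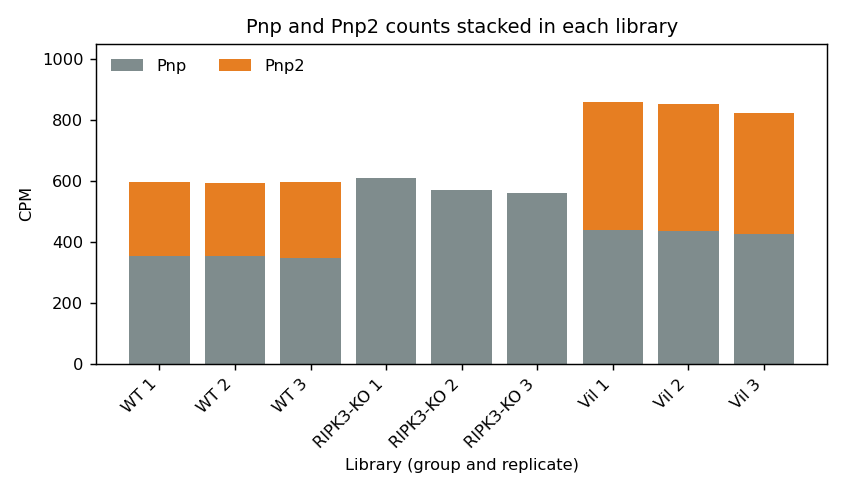
Stacked bars give the CPM of Pnp (grey) and Pnp2 (orange) in each of the 9 libraries, 1 bar per library. The RIPK3-KO bars hold almost no Pnp2, yet end at 561 to 611 CPM, beside 594 to 596 CPM in WT and 823 to 861 CPM in Vil.

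Pnp2 starts 4.83 Mb and Pnp 4.84 Mb from the start of Ripk3, so DNA of another strain carried along with an altered Ripk3 could reach them. The nearest tested genes outside the pair are given next. Tmem55b, which encodes a lipid phosphatase and lies before the pair, had means of 39.8 (WT), 42.6 (RIPK3-KO) and 37.0 CPM (Vil), and passed in neither comparison with WT (adjusted p = 0.262 and 0.206). Ang, which encodes the ribonuclease angiogenin and lies after the pair, fell in RIPK3-KO (log2 fold change -0.99, adjusted p = 1.98e-05) and rose in Vil (1.08, adjusted p = 2.67e-06). Rnase4, a ribonuclease gene that starts at the same base as Ang and overlaps it, was added after its values were seen, and had log2 fold changes of -0.08 in RIPK3-KO (adjusted p = 0.363) and 0.37 in Vil (adjusted p = 6.03e-05). The overlap makes the counts of both uncertain.

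Ccnb1ip1, a gene of meiotic crossing over just under 5 Mb from Ripk3, had 1 or 2 counts in each WT library and 183 to 217 in each RIPK3-KO library, with 1 to 5 in Vil. Rnase2a, of the eosinophil ribonuclease family and 4.53 Mb away, had 0 to 14 counts per library in WT, 118 to 156 in RIPK3-KO and 2 to 10 in Vil. These are near-absent in WT and Vil and present in RIPK3-KO, the reverse of Pnp2. Rnase1, a secreted ribonuclease that is abundant in pancreas, fell in RIPK3-KO (log2 fold change -3.16, adjusted p = 5.07e-21) and rose in Vil (2.88, adjusted p = 6.31e-22).

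Large changes were counted by distance from Ripk3. Of 144 tested genes within 5 Mb, other than Ripk3, 21 (14.6%) differed by more than 2 on the log2 scale between RIPK3-KO and WT, against 5.50% on other chromosomes. The share was 1.79% at 5 to 10 Mb, 10.9% at 10 to 20 Mb and 7.35% beyond 20 Mb, so it did not fall steadily with distance. Between Vil and WT the count within 5 Mb was 16 (11.1%), against 5.38%. That stretch also holds clusters of mast cell proteases, such as Mcpt4 (log2 fold change 4.04 in RIPK3-KO and 3.40 in Vil, adjusted p = 2.26e-11 and 1.18e-09) and Mcpt9 (3.66 and 2.82, adjusted p = 1.07e-07 and 1.05e-05). Granzyme genes lie there too. Gzmd and Gzme, below a mean of 1 CPM, had log2 fold changes of -8.59 and -8.46 in each deletion, larger in size than that of Pnp2. In the comparisons with WT the other large differences included Ang4, an antimicrobial ribonuclease of Paneth and goblet cells (4.42 in Vil, adjusted p = 9.98e-24), and Rpgrip1, a gene of photoreceptor cilia (2.85 in RIPK3-KO and 3.48 in Vil, adjusted p = 0.00377 and 0.00137). Regulation of Pnp2, linked DNA of another strain at the Pnp locus and reads assigned differently between the copies cannot be told apart from these counts.

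**Figure D2:**
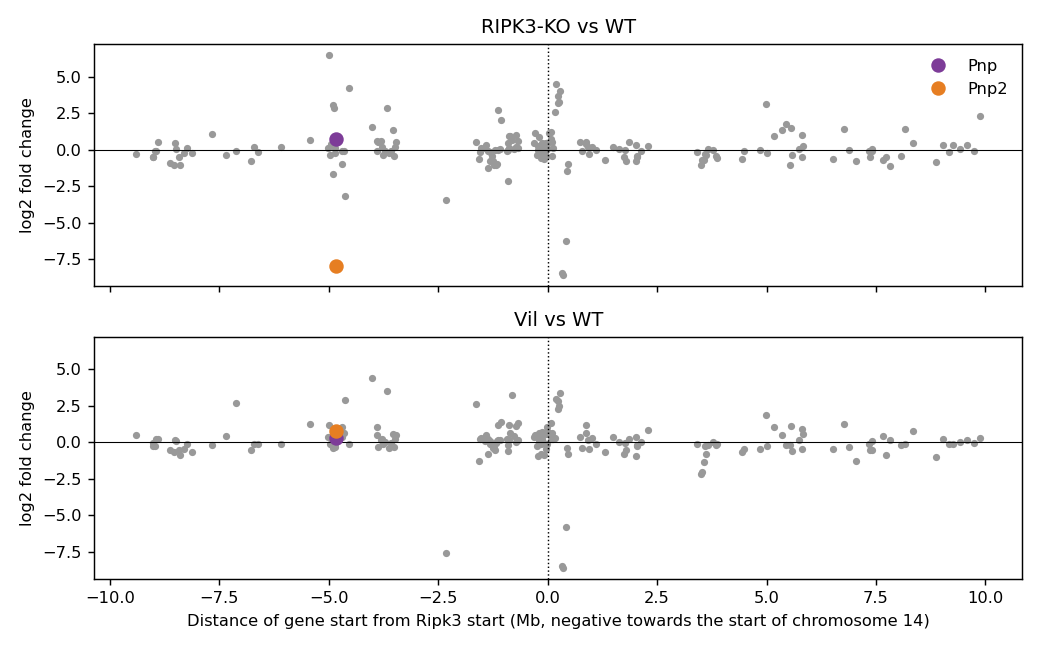
Each point is a tested gene within 10 Mb of Ripk3 on chromosome 14, with its distance from the Ripk3 start in Mb on the x axis and its fitted log2 fold change on the y axis, for RIPK3-KO against WT (top) and Vil against WT (bottom). Pnp2 (orange) lies at -7.96 in the top panel and 0.75 in the bottom one, while Pnp (purple) lies at 0.73 and 0.31.

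Nt5e, the surface enzyme that makes adenosine, had the widest range after Pnp2. It was at 21.5, 23.3 and 21.3 CPM in WT, at 192, 194 and 201 CPM in RIPK3-KO, and at 65.9, 71.4 and 73.6 CPM in Vil. All RIPK3-KO libraries lay above all Vil libraries, and these above all WT libraries. The fold over WT was 8.88 in RIPK3-KO (log2 fold change 3.15, SE 0.06) and 3.19 in Vil (1.67, SE 0.06). Nt5e (ENSMUSG00000032420) lies at chr9:88327197-88372092.

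Entpd1, the enzyme one step before Nt5e, went the other way. It was at 14.9 to 15.4 CPM in WT, 11.0 to 12.3 in RIPK3-KO and 10.5 to 12.4 in Vil. Both deletions lay below WT without overlap (log2 fold change -0.38 and -0.42, SE 0.10 and 0.11), and they overlapped each other. Entpd1 is known from blood vessel lining, macrophages and some T cells. The summed level of 9 macrophage markers was 471 to 485 CPM in WT, 493 to 525 in RIPK3-KO and 307 to 327 in Vil, and that of 8 T cell markers 38.7 to 44.5, 23.7 to 27.3 and 24.8 to 26.8 CPM. For 6 endothelial markers it was 85.8 to 92.2 CPM in WT, 122 to 136 in RIPK3-KO and 107 to 119 in Vil. No marker of these lists was at 0 in all libraries of a group, and their part in the level of Entpd1 was not tested. In whole tissue, fewer cells of a type and less RNA per cell cannot be told apart.

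Adora2b, a low-affinity adenosine receptor, was higher in both deletions, at a low level. It was at 4.39, 3.58 and 4.65 CPM in WT, at 12.2, 13.2 and 11.5 CPM in RIPK3-KO, and at 8.04, 9.12 and 8.36 CPM in Vil. The groups did not overlap and stood in the same order as for Nt5e. The fold over WT was 2.92 in RIPK3-KO (log2 fold change 1.55, SE 0.14) and 2.02 in Vil (1.02, SE 0.14).

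Scaled for gene length (TPM, given below), Ada, which clears adenosine and deoxyadenosine, was the most abundant of the 9. It was higher in both deletions by a similar factor. It was at 605, 606 and 608 CPM in WT, at 1674, 1663 and 1588 CPM in RIPK3-KO, and at 1585, 1599 and 1493 CPM in Vil. Every library of either deletion lay above every WT library, and the deletions overlapped each other. The fold over WT was 2.71 in RIPK3-KO (log2 fold change 1.44, SE 0.04) and 2.57 in Vil (1.36, SE 0.04), and Vil minus RIPK3-KO was -0.07 (SE 0.04). Ada (ENSMUSG00000017697) lies at chr2:163726584-163750239 on the - strand.

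Markers of several cell types moved with Ada and Nt5e. The summed level of 11 enterocyte markers was 24568 to 24721 CPM in WT, 40947 to 42952 in RIPK3-KO and 38463 to 41994 in Vil. Of these 11, 8 rose and 2 fell in RIPK3-KO, and 8 rose and 0 fell in Vil. Beside these and the counts below, 27.3% of all tested genes rose and 28.1% fell in RIPK3-KO, and 27.2% and 28.4% in Vil. Apoa4, an apolipoprotein of the upper villus, averaged 6839 ± 34.0 CPM in WT, against 15946 ± 417 in RIPK3-KO and 13032 ± 1075 in Vil (SD, n = 3). The summed level of 6 markers of proximal intestine was 1557 to 1593 CPM in WT, 3525 to 3682 in RIPK3-KO and 2767 to 2870 in Vil, of which 3 rose and 1 fell in each comparison with WT. For 6 markers of distal intestine the sum was 210 to 216, 187 to 203 and 267 to 300 CPM. Of them 2 rose and 3 fell in RIPK3-KO, and 2 rose and 1 fell in Vil. Outside the epithelium, 6 smooth muscle markers summed to 1255 to 1307 CPM in WT, 2837 to 3180 in RIPK3-KO and 2478 to 2636 in Vil, and all 6 rose in each comparison with WT. For 7 fibroblast markers the sums were 365 to 374, 566 to 604 and 384 to 398 CPM, with 5 and 1 of them called higher. The sums of 10 adipocyte markers were 250 to 268, 6150 to 6276 and 434 to 436 CPM. Of these lists, the enterocyte sums of the deletions overlapped, as did Ada. Those sums were led by Apoa4 and Apoa1 and join markers that moved apart. Of the 11, 6 were called higher and 5 lower in Vil than in RIPK3-KO (beside 15.1% and 16.6% of all genes). The adipocyte, fibroblast, smooth muscle and proximal sums were higher in every RIPK3-KO library than in any Vil library, as was Nt5e. No marker was at 0 in all libraries of a group, and the part of these differences in the levels of Ada and Nt5e was not tested.

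Ada, Nt5e and Adora2b were the members outside chromosome 14 that were higher in both deletions, and the 250 bases before their RefSeq starts are printed for that reason, a choice made after their values were seen. RefSeq promoters (GRCm38.p6) were found for 7 of the 9 genes. The RefSeq start of Nt5e lies inside the region that the deposited table gives the gene, so its stretch comes after the start used there. The capitals mark ACGTG or GCGTG on either strand (written CACGT or CACGC when on the other strand), the core letters of the hypoxia response element, since Nt5e and Adora2b are known as genes that hypoxia induces.
Ada, chr2:163750240-163750489, - strand: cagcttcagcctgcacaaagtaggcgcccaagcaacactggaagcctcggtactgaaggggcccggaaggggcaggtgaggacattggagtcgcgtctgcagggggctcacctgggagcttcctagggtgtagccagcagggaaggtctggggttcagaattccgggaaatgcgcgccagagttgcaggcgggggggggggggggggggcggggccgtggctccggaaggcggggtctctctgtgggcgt
Nt5e, chr9:88327359-88327608, + strand: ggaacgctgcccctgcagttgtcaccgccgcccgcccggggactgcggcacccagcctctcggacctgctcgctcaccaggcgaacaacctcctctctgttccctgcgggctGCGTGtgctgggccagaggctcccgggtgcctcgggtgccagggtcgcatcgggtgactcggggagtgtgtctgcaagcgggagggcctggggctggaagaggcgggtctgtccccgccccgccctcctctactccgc
Adora2b, chr11:62248734-62248983, + strand: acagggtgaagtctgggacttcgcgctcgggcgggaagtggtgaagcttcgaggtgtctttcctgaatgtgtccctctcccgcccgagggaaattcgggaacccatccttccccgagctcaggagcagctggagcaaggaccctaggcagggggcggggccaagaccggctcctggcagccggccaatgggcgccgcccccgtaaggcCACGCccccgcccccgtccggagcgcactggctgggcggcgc
Nt5e and Adora2b each held 1 match and Ada 0 in this window. Aprt and 1 of the 2 promoters of Entpd1, genes that were lower in both deletions, also held 1 match each, so 4 of the 8 promoters of members did. The letters occurred in 12679 of 32851 RefSeq promoters of the same length (38.6%), so a match is common.

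Hprt and Aprt, the transferases that return free bases to nucleotides, were lower in both deletions. Hprt was at 87.6 to 93.1 CPM in WT, 59.4 to 66.3 in RIPK3-KO and 61.0 to 61.8 in Vil, with log2 fold changes of -0.51 and -0.56 (SE 0.06 for each). Both deletions lay below every WT library and overlapped each other. Aprt was at 232 to 242 CPM in WT, 173 to 198 in RIPK3-KO and 196 to 214 in Vil, with log2 fold changes of -0.35 and -0.20 (SE 0.05 for each). Its groups also lay apart from WT. Aprt overlaps Gm20388 on the other strand, which was at 37.0 to 43.7 CPM in the group means, and whether counting used strand is not stated, so its counts are uncertain.

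Hprt lies on the X chromosome, and the groups differed in sex-linked genes. Xist, the RNA of the silenced X chromosome, stood at 276 ± 5.75 CPM for RIPK3-KO, at 8.46 ± 1.99 for WT and at 7.50 ± 0.415 for Vil (SD, n = 3). The Y-linked gene Ddx3y was at 0.477 ± 0.213, 39.8 ± 1.72 and 38.1 ± 4.58 CPM in the same order. Hprt averaged 63.7 ± 3.70 CPM in RIPK3-KO and 61.5 ± 0.388 CPM in Vil. These groups differ in genotype as well as in the sex-linked genes, and the part of sex in the level of Hprt was not tested.

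Xdh, which makes uric acid, moved least. It was at 915 to 928 CPM in WT, 884 to 1048 in RIPK3-KO and 805 to 866 in Vil. RIPK3-KO overlapped WT, while Vil lay below both (log2 fold change against WT -0.13, SE 0.05).

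**Figure D3:**
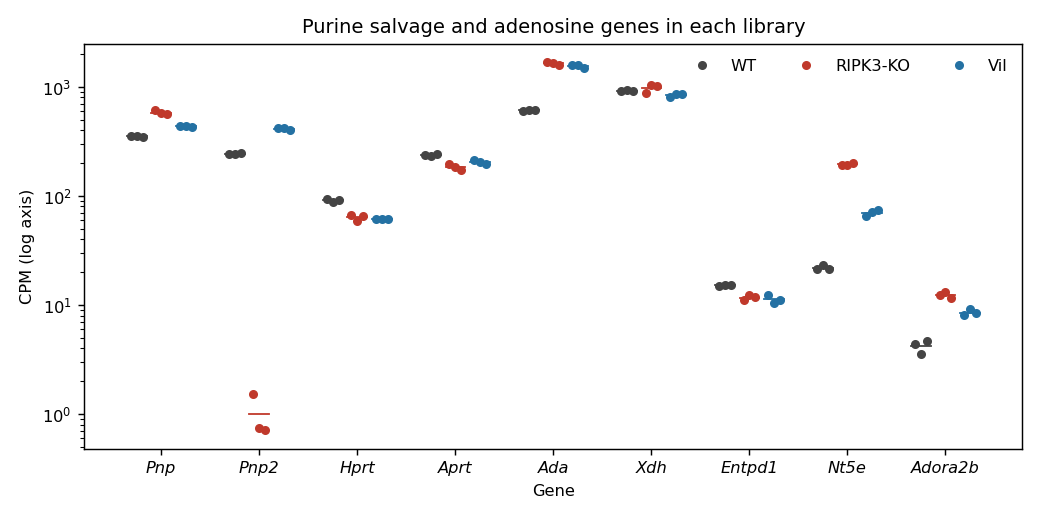
Points are the CPM of each of the 9 genes in each library on a log axis, with a line at the mean of each group of 3. Pnp2 falls to about 1 CPM in RIPK3-KO, Nt5e and Adora2b are ordered RIPK3-KO, Vil, WT from high to low, Ada is higher in both deletions, and Hprt, Aprt and Entpd1 are lower in both.

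By the call rule used for all genes (edgeR quasi-likelihood test, adjusted p under 0.05), 8 of the 9 were called between RIPK3-KO and WT, 4 higher and 4 lower, beside 55.4% of all 16539 tested genes (27.3% higher, 28.1% lower). Between Vil and WT all 9 were called, 5 higher and 4 lower, beside 55.6% (27.2% higher, 28.4% lower). Between Vil and RIPK3-KO 6 were called, 2 higher and 4 lower, beside 31.7% (15.1% higher, 16.6% lower). Libraries of the groups did not overlap for 8, 9 and 5 members, beside 63.5%, 61.4% and 40.8% of tested genes. Nothing is read from these counts, since the genes were chosen with these values known, and both comparisons with WT share the WT libraries.

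Levels of different genes were compared with the authors' deposited TPM, which divides by gene length. In WT the order ran from Ada (746 ± 7.13 TPM, SD, n = 3) through Xdh (495 ± 8.17), Pnp2 (439 ± 3.70), Aprt (360 ± 5.76), Pnp (280 ± 4.75) and Hprt (174 ± 4.001) to Nt5e (10.4 ± 0.620), Entpd1 (6.70 ± 0.121) and Adora2b (5.61 ± 0.694), and no neighbours in this order overlapped. In RIPK3-KO, Nt5e stood at 88.8 ± 4.54 TPM, nearer to Hprt (117 ± 6.29), and Adora2b (15.8 ± 1.11) stood above Entpd1 (4.97 ± 0.393). Xdh (510 ± 59.1) and Pnp (445 ± 6.79) overlapped there, and Pnp2 was last at 1.70 ± 0.746. In Vil, Pnp2 was second at 611 ± 10.3 TPM and Nt5e was at 27.4 ± 2.15. Ada was first in all 3 groups, at 1943 ± 39.5 TPM in RIPK3-KO and 1582 ± 44.6 in Vil. On this scale Pnp was at 286 ± 3.84 TPM in Vil, close to its level in WT, although its CPM were 1.24-fold higher. Pancreatic transcripts made up more of the Vil libraries, with 12 exocrine markers summing to 17765 to 18855 CPM against 2304 to 2335 in WT and 88.6 to 104 in RIPK3-KO, and the part of this in the difference between the scales was not tested.

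Other genes of purine metabolism were taken from 5 lists made by function, but with earlier results of these data known. The lists had 88 genes in the table, of which 80 were tested. In RIPK3-KO against WT 21 rose and 34 fell, or 68.8% of the tested genes beside 55.4% of all genes, with a median log2 fold change of -0.17 beside 0.01 for all. In Vil against WT 19 rose and 33 fell (65.0% beside 55.6%, median -0.22 beside 0.02). Between Vil and RIPK3-KO 10 were higher and 21 lower in Vil (38.8% beside 31.7%, median -0.03 beside -0.01).

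Of 15 tested genes that build purines from small precursors, 12 fell and 1 rose in RIPK3-KO (beside 28.1% and 27.3% of all genes, median -0.42), and 13 fell and 0 rose in Vil (beside 28.4% and 27.2%, median -0.49). Prps1 and Prpsap2 did not pass in RIPK3-KO, nor Prpsap1 and Prpsap2 in Vil, and Prpsap2 had positive log2 fold changes, 0.15 and 0.16. Impdh2 and Gmps, which lead to guanine nucleotides, fell in RIPK3-KO from 98.9 ± 0.797 to 69.1 ± 3.78 CPM and from 59.7 ± 1.06 to 39.9 ± 1.95 CPM (SD, n = 3; adjusted p = 8.75e-09 and 3.19e-08), and fell in Vil too (log2 fold change -0.41 and -0.51, adjusted p = 4.64e-07 and 4.35e-07). Gart and Atic, enzymes of the route to inosine monophosphate, fell in Vil from 63.6 ± 0.545 to 43.8 ± 1.34 CPM and from 89.4 ± 2.26 to 62.9 ± 1.34 CPM (adjusted p = 2.70e-08 and 6.05e-08), and fell in RIPK3-KO too (-0.46 and -0.39, adjusted p = 2.68e-07 and 2.15e-06). Paics, of the same route, was the gene that rose in RIPK3-KO (log2 fold change 0.19, adjusted p = 0.0303), a call lost under 6 of 16 alternatives (adjusted p from 0.0164 to 0.103), among them without RIPK3-KO replicate 1. Paics fell in Vil (-0.26, adjusted p = 0.00427). Between the deletions 4 genes were lower and 0 higher in Vil (26.7% beside 31.7% of all genes). Among them were Paics at -0.45 (adjusted p = 2.91e-05) and Pfas at -0.33 (0.00768, and 0.0623 without Vil replicate 1).

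A pair of nucleoside carriers had the largest rises among the transporters in both deletions. Slc28a1, a sodium-driven carrier that prefers pyrimidine nucleosides and also binds adenosine, went from 11.2 ± 1.14 CPM in WT to 91.4 ± 2.43 in RIPK3-KO and 94.8 ± 1.33 in Vil (SD, n = 3; log2 fold change 3.03 and 3.08, adjusted p = 3.12e-22 and 2.94e-22). Slc28a2, the carrier for purine nucleosides, went from 134 ± 4.11 to 458 ± 9.19 and 316 ± 23.3 CPM (1.77 and 1.24, adjusted p = 7.14e-20 and 1.90e-16). In both, every library of either deletion lay above WT. Of the 12 tested genes of the list, 4 rose and 1 fell in RIPK3-KO (41.7% beside 55.4% of all genes), and 4 rose and 3 fell in Vil (58.3% beside 55.6%). Other nucleoside carriers did not pass in RIPK3-KO, with log2 fold changes of 0.08 for Slc28a3, -0.09 for Slc29a1, -0.34 for Slc29a2, 0.05 for Slc29a3 and -0.35 for Slc29a4 (adjusted p of at least 0.271). Slc17a9, which loads ATP into vesicles, fell in both (log2 fold change -0.88 and -0.67, adjusted p = 0.00148 and 0.0132), and in Vil the call was lost without WT replicate 1 (0.0551) or Vil replicate 3 (0.0593). Slc29a1, the equilibrative carrier, fell in Vil (-0.30, adjusted p = 0.00796), a call lost without WT replicate 1 (0.0663). Slc28a3 rose in Vil (0.61, adjusted p = 4.47e-07), where it was also higher than in RIPK3-KO (0.53, adjusted p = 6.59e-06), while Slc28a2 was lower there than in RIPK3-KO (-0.53, adjusted p = 4.45e-09). Abcg2, which exports urate, rose in both deletions (0.61 and 0.77, adjusted p = 1.07e-09 and 1.79e-11) and was higher in Vil than in RIPK3-KO (0.16, adjusted p = 0.0281), a call lost under 5 of 16 alternatives (0.0105 to 0.158), including without RIPK3-KO replicate 2, RIPK3-KO replicate 3 or Vil replicate 3.

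A list of enzymes that cut nucleotides or bind their partners, mainly outside the cell, split in direction. It also holds enzymes of internal membranes, such as Entpd4. Of 17 tested, 6 rose and 10 fell in RIPK3-KO (94.1% beside 55.4% of all genes, median -0.18). In Vil 7 rose and 5 fell (70.6% beside 55.6%, median 0.10). Dpp4, the brush border peptidase known as an anchor of ADA protein in humans, rose from 150 ± 4.03 CPM to 412 ± 8.58 in RIPK3-KO and 535 ± 33.8 in Vil (adjusted p = 1.56e-18 and 1.92e-20). Enpp3, which cuts ATP, rose in RIPK3-KO (log2 fold change 1.07, adjusted p = 5.82e-15) and in Vil (0.75, adjusted p = 8.79e-12). Entpd8, which cuts ATP and ADP, also rose in both (0.78 and 0.86, adjusted p = 4.82e-13 and 1.04e-13). Akp3, an alkaline phosphatase of the duodenum, fell from 42.4 ± 3.54 to 6.57 ± 1.17 CPM in RIPK3-KO (adjusted p = 2.38e-16) and rose to 111 ± 5.91 CPM in Vil (adjusted p = 2.27e-12). It had the largest difference between the deletions in the list (log2 fold change 4.07 in Vil against RIPK3-KO, adjusted p = 1.57e-19). Cd38, which uses NAD, fell in RIPK3-KO (-0.51, adjusted p = 1.09e-08) and was higher in Vil than in RIPK3-KO (0.60, adjusted p = 1.30e-09), while Enpp3 and Entpd5 were lower there (-0.31 and -0.34, adjusted p = 4.28e-05 and 2.27e-06). Entpd4, an enzyme of internal membranes, and Alpl, tissue-nonspecific alkaline phosphatase, fell in RIPK3-KO (-0.68 and -2.14, adjusted p = 2.00e-06 and 9.49e-08) and in Vil (-1.03 and -2.38, adjusted p = 4.92e-09 and 4.59e-08). The enterocyte sums given above were higher in both deletions, as were Dpp4, Enpp3, Slc28a1 and Slc28a2, and their part was not tested. Between the deletions those sums overlapped, while Dpp4 was higher in Vil (0.38, adjusted p = 7.20e-07) and Enpp3 and Slc28a2 were lower. Alpi, an enterocyte marker also in this list, fell in RIPK3-KO (-0.15, adjusted p = 0.0110) and did not pass in Vil (0.10, adjusted p = 0.0660).

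Of 16 other tested receptors for adenosine and nucleotides, 5 rose and 2 fell in RIPK3-KO (43.8% beside 55.4% of all genes, median 0.05), and 4 rose and 2 fell in Vil (37.5% beside 55.6%, median -0.09). Adora1, a high-affinity adenosine receptor, went from 1.87 ± 0.197 CPM in WT to 12.001 ± 0.457 in RIPK3-KO and 4.02 ± 0.135 in Vil (SD, n = 3; adjusted p = 1.60e-13 and 4.18e-06), the same order as Adora2b and Nt5e. Adipocytes express Adora1. All 10 adipocyte markers, whose sums are given above, were called higher in each deletion than in WT (beside 27.3% and 27.2% of all genes). Their part was not tested. The channel P2rx6 rose in both (log2 fold change 1.67 and 1.10, adjusted p = 8.31e-05 and 0.0064). P2rx1 rose in Vil (0.91, adjusted p = 0.000142) and was at -0.24 in RIPK3-KO (adjusted p = 0.282). P2rx5 rose in RIPK3-KO (2.58, adjusted p = 9.38e-05) and was lower in Vil than in RIPK3-KO (-3.57, adjusted p = 1.69e-05). P2rx7, the ATP-gated channel of inflammatory cells, was at 7.46 ± 1.32 CPM in WT and 5.41 ± 0.150 in Vil (adjusted p = 0.0131, and 0.128 without WT replicate 1). P2rx4 fell in Vil (-0.36, adjusted p = 2.49e-05). For RIPK3-KO the calls of P2rx4 (-0.15, adjusted p = 0.0384) and P2ry13 (-0.57, adjusted p = 0.0441) were lost under 7 and 9 of 16 alternatives (0.0257 to 0.113 and 0.0357 to 0.102), among them without any single WT library.

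Of 20 other tested salvage and breakdown genes, 5 rose and 9 fell in RIPK3-KO (beside 27.3% and 28.1% of all genes, median -0.19), and 4 rose and 10 fell in Vil (beside 27.2% and 28.4%, median -0.14). Samhd1, which breaks down deoxynucleotides and is induced by interferon, fell from 406 ± 4.92 CPM to 261 ± 3.00 in RIPK3-KO and 215 ± 4.66 in Vil (SD, n = 3; adjusted p = 2.70e-12 and 2.46e-15). The nucleotidase genes Nt5c3 and Nt5c2 fell in both deletions, Nt5c3 by log2 fold changes of -0.72 in RIPK3-KO and -0.55 in Vil (adjusted p = 1.33e-08 and 1.56e-06) and Nt5c2 by -0.44 and -1.10 (adjusted p = 0.000126 and 1.85e-10). Aox1, an oxidase related to Xdh, rose in RIPK3-KO from 1.07 ± 0.343 to 5.96 ± 1.11 CPM (adjusted p = 1.54e-07) and was lower in Vil than in RIPK3-KO (-2.40, adjusted p = 8.36e-07). Gmpr, which turns guanine into inosine nucleotides, rose in RIPK3-KO (1.59, adjusted p = 1.73e-06) and in Vil (1.28, adjusted p = 5.06e-05), as did the mitochondrial kinase gene Dguok (0.51 and 0.64, adjusted p = 0.000473 and 4.39e-05). Nt5c rose in Vil (0.32, adjusted p = 2.80e-05) and had a log2 fold change of -0.04 in RIPK3-KO (adjusted p = 0.515). Between the deletions Nt5c was higher (0.37, adjusted p = 1.08e-05) and Nt5c2 lower (-0.66, adjusted p = 2.71e-06) in Vil.

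**Figure D4:**
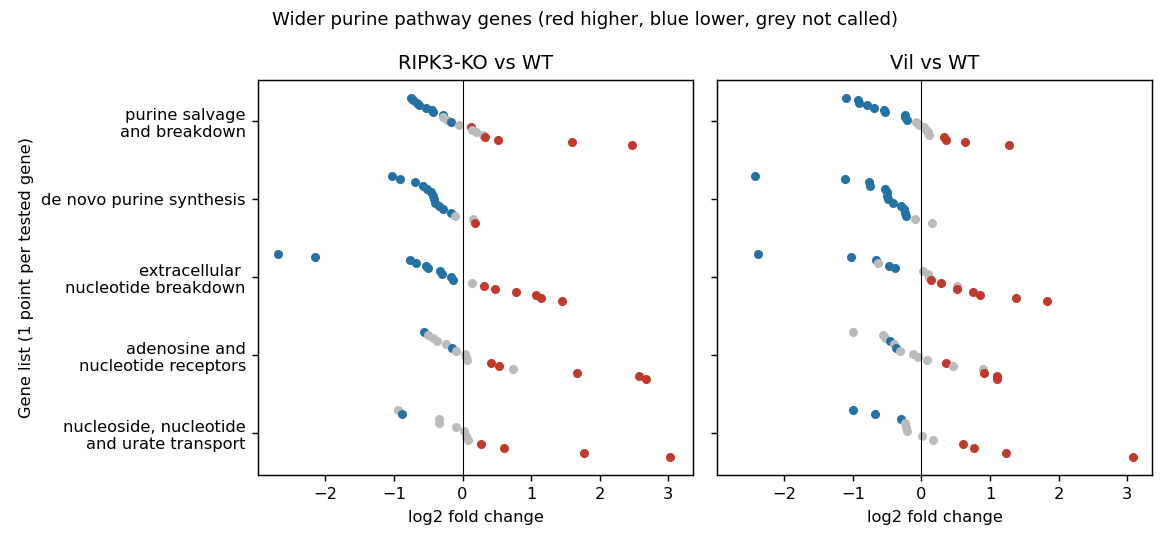
Each point is the fitted log2 fold change of 1 tested gene of the 5 lists, for RIPK3-KO against WT (left) and Vil against WT (right), red where called higher, blue where called lower and grey where not called. In the row of de novo synthesis 12 of 15 points are blue on the left and 13 on the right, and the transport row holds the largest positive value in each panel, Slc28a1 at 3.03 and 3.08.

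Genes with the most similar pattern over the 9 libraries were named for the 4 members with the widest range, by the root mean square difference of centred log2 CPM. For Nt5e these were Pck1 (difference 0.15), the sugar transporter relative Slc5a4a (0.20) and Mgll (0.22), a lipase of monoglycerides. Pck1, of glucose synthesis, averaged 18.4 ± 0.950 CPM in WT, against 165 ± 7.16 in RIPK3-KO and 47.7 ± 2.49 in Vil (SD, n = 3). It is also 1 of the 10 adipocyte markers summed above. For Ada they were Tpm2 (0.05), Bst1 (0.06) and Fbln1 (0.07), and for Adora2b Cped1 (0.11), Dnah2 (0.12) and Sepp1 (0.12). For Pnp2 the nearest were the Y-linked genes Eif2s3y (0.70) and Kdm5d (1.03) and the pancreatic gene Reg2 (0.81), so its nearest patterns were not close ones.

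Some facts of the whole series bear on all of these values. Total counts ran from 25375499 to 41038990 per library. Ripk3 itself averaged 113 ± 0.979 CPM in WT, against 3.61 ± 0.242 in RIPK3-KO and 6.45 ± 0.911 in Vil (SD, n = 3; log2 fold change against WT -4.96 and -4.12, SE 0.088 and 0.085, adjusted p = 1.23e-24 and 5.24e-23). Sex-linked, pancreatic and adipocyte genes differed between the groups as given above, so genotype cannot be told apart from sex in comparisons with RIPK3-KO, nor from tissue makeup in any of them. The RIPK3-KO samples were also numbered in the series apart from those of WT and Vil, which run on from each other. A difference in handling, if there was one, cannot be told apart from the RIPK3-KO genotype.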

How the data were processed

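Total RNA from 9 small intestine libraries was compared, grouped by sample title. The labels name removal of ribosomal RNA and stranded kits. Trimmomatic, STAR, HTSeq, DESeq2 and mm10 are named, without role or version, per the submitters' processing notes. The deposited table holds whole-number counts per gene and the authors' TPM, and whether counting used strand is not stated. Of 48708 genes, 23245 had 0 counts in every library. The identifiers of 8 of the 9 members carry the same symbol in GENCODE M21. That of Pnp is given there to Gm49342, a gene that overlaps both copies, and which annotation release the authors used is not stated.

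The test was that of edgeR 4.0.16 (R 4.3.3; filterByExpr, 16539 genes kept, TMM factors 0.932 to 1.043, robust quasi-likelihood, a mean for each group over all 9 libraries, 6 residual degrees of freedom, Benjamini-Hochberg adjustment, threshold 0.05, prior count 0.125), a procedure first tested on simulated data. CPM use TMM-scaled library sizes. SE comes from the quasi-likelihood F statistic. A floor of 3 counts is 0.0731 to 0.118 CPM per library, for counting error only. Replicates differed beyond sampling noise (chi-square per gene 3.57 to 12.0). Coding sequences were aligned with Biopython 1.88.

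The members and lists were chosen with earlier results of these data known. Pathway genes named are up to 2 higher and 2 lower per list and comparison with the smallest p. Near Ripk3 they are the 5 largest changes against WT within 10 Mb (mean CPM of at least 1) and the neighbours of the Pnp pair. Genes of similar pattern are the 3 nearest in log2 CPM (prior count 2). Alternatives were RLE size factors, TMM without pancreas and adipocyte markers, keeping any gene with 1 read, keeping genes at 1 CPM in at least 3 libraries, fitting only the 2 groups compared, DESeq2 1.42.0, the replicate number as a block, each library left out, and Pnp and Pnp2 summed.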

Additional observations from a re-analysis of the deposited data

Results flagged for a closer look

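Pnp2 is set apart because every RIPK3-KO library lay below every WT library (log2 fold change -7.96) while every Vil library lay above (0.75). The difference between these 2 effects, which both share the WT libraries, equals the comparison of Vil with RIPK3-KO (log2 fold change 8.71, SE 0.11). It carries no p-value, since the gene was chosen with its values known.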

How the results depend on the processing

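Summing Pnp and Pnp2 took the log2 fold change of Pnp between RIPK3-KO and WT from 0.73 to -0.036 (SE 0.044), with overlapping groups. Between Vil and RIPK3-KO it turned the direction, from -0.42 to 0.54. Pnp2 took the same summed values, by construction. Under the 16 other alternatives, the 27 member fold changes kept their sign in all but 1 of 432 values, Entpd1 between Vil and RIPK3-KO (0.01 without Vil replicate 2). The largest shift was 0.44 for Pnp2 between Vil and RIPK3-KO, without RIPK3-KO replicate 1. Wider pathway genes called ranged from 48 to 57 (RIPK3-KO against WT), 44 to 54 (Vil against WT) and 25 to 31 (Vil against RIPK3-KO). Of 135 values of named genes, 117 kept their status, called or not called, under every alternative that gave an adjusted p. These were 16 alternatives, or 15 for Ccnb1ip1, P2rx5 and Rnase2a between Vil and WT. Under at least 1 alternative, 13 values lost a call and 5 gained one. The replicate numbers did not mark pairs (correlations of residuals -0.04 to 0.09), and with the replicate block 9211, 9247 and 5371 genes were called, beside 9164, 9201 and 5244. Depth limits the few-count genes, such as Pnp2 in RIPK3-KO.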
